A study of Mus musculus with 2 samples.

Results

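Groups of neighbouring Nacc1 peaks were described in N2A cells, a mouse neuroblastoma line. A group was defined as at least 3 listed peaks of a chromosome in which each peak began no more than 10000 bp beyond the end of the one before it, edge to edge. On the 16 autosomes considered, which are all except chromosomes 2, 8 and 13, this rule found 115 groups holding 383 peaks, of 4451 peaks on those chromosomes and 5942 in the whole list. The remaining peaks of the 16 autosomes formed 402 pairs (804 peaks) and 3264 single peaks, which served for comparison.

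The series holds 1 ChIP library, for which fixation was with 1% formaldehyde and chromatin was recovered with 4 µg of an antibody to Nacc1, and 1 input library of the same line that received no antibody. N2A is a single line, and neither library had a replicate or carried a treatment. Values below come from the list of peaks deposited for the ChIP library. Read depth and the input were not analysed here, so the depth behind a single peak is unknown. The groups were chosen by the listed positions of the peaks, and scores and widths come from the same peak calling, so all comparisons are descriptions without a test. Intervals are 95% exact Clopper-Pearson intervals, which cover counting error only and take peaks or groups as independent, which neighbours are not.

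Nacc1, also called NAC1, is a nuclear protein with a BTB/POZ domain, through which such proteins bind each other and co-regulators, and a BEN domain, a type of domain known to bind DNA. It was first described in the nucleus accumbens of the brain and is best known there, in embryonic stem cells and in ovarian cancer. In ChIP-seq, a stretch with several separate peaks may hold several places of contact or 1 broader contact that a caller divides, and a list of peaks alone does not separate these. No gene is named at any position, since the positions are in the mouse build mm9 and the gene and promoter tables at hand are in GRCm38.

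Each peak carries the authors' score, which in the format of MACS 1.4 is the log10 of the caller's p-value multiplied by -10. The lowest score in the list was 50, equal to a p-value of 1e-05. Ratios of scores below are therefore ratios of logarithms of p-values and not of enrichment, and they are used only within this list.

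Most groups were small. Of the 115 groups, 86 held 3 peaks, 22 held 4, 5 held 5 and 2 held 6, so that groups of 3 contained 258 of the 383 peaks (67.4%). Groups held 8.60% of the peaks of the 16 autosomes (7.80% to 9.47%), pairs held 18.1% and single peaks 73.3%. The median extent of a group, from its first to its last base, was 9393 bp (quartiles 6648 and 13162 bp), and the extremes were 1393 and 24610 bp. The peaks themselves covered a median of 16.7% of that stretch, so most of a typical group was sequence between peaks.

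Neighbouring peaks inside a group were spaced much like the peaks of a pair. The median of the 268 gaps inside groups was 2868 bp (quartiles 736 and 5599 bp), and that of the 402 gaps of pairs was 2743.5 bp (quartiles 727 and 6162.5 bp). A gap under 1000 bp was found 78 times in groups (29.1%, 23.7% to 34.9%) and 119 times in pairs (29.6%, 25.2% to 34.3%). Gaps of under 200 bp numbered 24 in groups and 46 in pairs. Spacing within a group was uneven, with a median ratio of 4.76 between its largest and its smallest gap.

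**Figure D1:**
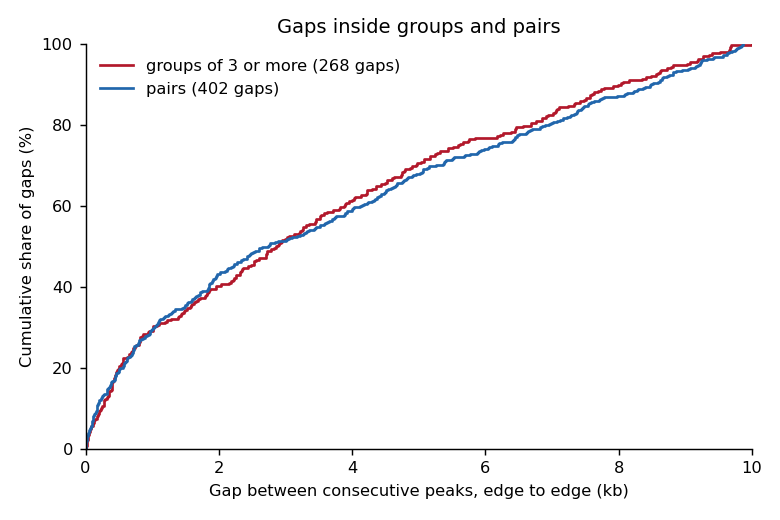
Cumulative share of edge-to-edge gaps (vertical axis, %) against gap length (horizontal axis, kb) for the 268 gaps inside groups of 3 or more peaks and the 402 gaps of pairs. Both lines run close together, with medians of 2868 and 2743.5 bp.

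The shortest gaps bear on how many separate places a group holds. In 61 groups at least 1 gap was under 1000 bp, and in 5 groups every gap was. When peaks less than 1000 bp apart were counted as 1 region, 67 of the 115 groups still held at least 3 regions, 43 held 2 and 5 held 1. The most compact group, at chromosome 9, 113123319 to 113124711, held peaks with scores of 55.45, 92.5 and 136 separated by only 107 and 174 bp. At chromosome 18, 38176247 to 38178146, the gaps were 13 and 32 bp and the scores 399.6, 66.7 and 99.5. At chromosome 1, 121848776 to 121850907, they were 451 and 347 bp, with scores of 111, 65.9 and 70.4. These 3 groups became 1 region each under that merging.

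The longest group lay at the other extreme. At chromosome 6, 54382187 to 54406796, 4 peaks were spread over 24610 bp with gaps of 8356, 4780 and 9659 bp. Its outer peaks had the higher scores, 209 and 292, and the inner peaks had 72.2 and 55.45. The next longest were the groups of chromosome 15, 84188359 to 84211438 (23080 bp), and chromosome 4, 150118763 to 150141053 (22291 bp), which belong to the largest groups described further on.

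Grouped peaks had scores close to those of paired peaks and above those of single peaks. The median score was 94.5 for grouped peaks, with quartiles of 65.2 and 173, against 95.4 for paired peaks (64.5 and 162) and 76.3 for single peaks (58.1 and 127). Scores of 100 or more made up 46.0% of grouped peaks (40.9% to 51.1%), 47.6% of paired peaks (44.1% to 51.2%) and 34.5% of single peaks (32.8% to 36.1%). At the top of the list the classes spread further. Scores of 1000 or more were listed for 10 of 383 grouped peaks (2.61%, 1.26% to 4.75%), 10 of 804 paired peaks (1.24%, 0.60% to 2.28%) and 34 of 3264 single peaks (1.04%, 0.72% to 1.45%). The intervals of groups and single peaks overlapped at this level.

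Read from the other side, groups held 176 of the 1684 peaks scoring 100 or more (10.5%), 28 of the 196 scoring 500 or more (14.3%, 9.71% to 20.0%) and 10 of the 54 scoring 1000 or more (18.5%, 9.25% to 31.4%). Their share of all peaks was 8.60%. Pairs, with 18.1% of all peaks, held 383, 44 and 10 of the peaks at these 3 levels, so at the highest level they held as many as groups. Widths had medians of 465 bp in groups, 447 bp in pairs and 402 bp among single peaks. In this caller a wider region tends to receive a higher score, so width and score are not separate evidence. Only 1 grouped peak was wider than 2000 bp.

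Members of a group were also split into its highest peak and the others. The median score was 188 for the highest peak of each group (quartiles 111 and 406) and 78.4 for the 268 other members (quartiles 60.4 and 116), the latter close to the 76.3 of single peaks. Picking the highest of several peaks raises its score and lowers the median of the rest by construction. Single peaks were not split in this way, so the closeness of 78.4 to 76.3 is not a like comparison. In pairs the highest peak had a median of 146 and the lower peak 68.2. Leading peaks of groups had a median width of 575 bp, other members 430.5 bp.

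Score order within a group was sorted into 4 patterns. A main peak, with a score at least 2 times that of the next, was present in 41 groups (35.7%, 26.9% to 45.1%). An even pattern, with the highest score under 2 times the lowest, was found in 39 (33.9%, 25.3% to 43.3%). In 16 groups (13.9%) a leading pair of peaks stood at least 2 times above the rest, and 19 (16.5%) were graded, without such a step near the top. No pattern therefore described most groups.

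The floor of the list limits these ratios. A group whose highest score is under 100 cannot reach a ratio of 2 when the lowest possible score is 50, and 21 of the 39 even groups were of that kind. Among the 94 groups with a highest score of at least 100, 41 had a main peak (43.6%, 33.4% to 54.2%) and 18 were even (19.1%, 11.8% to 28.6%). Among the 71 groups with a highest score from 100 to under 500, 25 had a main peak (35.2%), and among the 23 with at least 500, 16 did (69.6%, 47.1% to 86.8%).

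Pairs had a main peak more often by the same ratio. It was found in 175 of 402 pairs (43.5%, 38.6% to 48.5%), and in 175 of the 291 pairs with a highest score of at least 100 (60.1%, 54.3% to 65.8%). Where the highest score was at least 500, it was found in 35 of 40 pairs (87.5%, 73.2% to 95.8%). With peaks under 1000 bp apart merged this order turned, with a main peak in 46.3% of groups and 41.7% of pairs, and with a gap limit of 20000 bp the shares were 40.4% and 40.3%. The median ratio of the highest to the next score was 1.58 in groups and 1.79 in pairs. These ratios are not on equal footing, because in a group the next score is the higher of at least 2 others. Set against the median of the other members, the leading peak of a group had a median ratio of 2.12. That value is not on equal footing with pairs either, because the leading peak is the highest of at least 3. Consecutive peaks, which can be compared one to one, differed by a median ratio of 1.77 inside groups (268 steps), 1.79 inside pairs (402) and 1.58 between neighbouring single peaks (2831). With only peaks scoring 100 or more, which left 22 groups, these medians were 1.54 inside groups, 1.85 inside pairs and 1.655 between single peaks. Groups then had the smallest of the 3. With peaks under 1000 bp apart merged they were 2.16, 1.78 and 1.61, and groups had the largest. The order of the 3 thus depended on the setting.

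**Figure D2:**
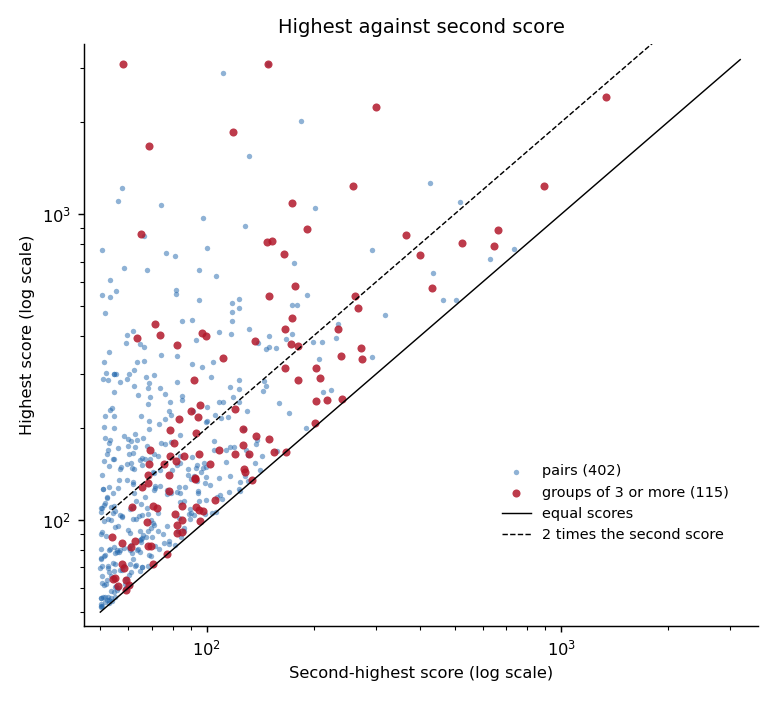
Highest score (vertical axis, log scale) against the second-highest score (horizontal axis, log scale) for 115 groups and 402 pairs, one point each, with lines at equal scores and at 2 times the second score. Of the groups, 41 lie on or above the dashed line, and 5 have a ratio of at least 10.

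The clearest main peaks belonged to some of the strongest sites of the list. The floor of 50 partly sets this link, since a very large ratio is possible only where the highest score is high. At chromosome 15, 101975725 to 101982532, a 1220 bp peak of score 3097 was followed after 399 bp by a peak of score 58.0 and after another 4440 bp by one of 56.5. The leading peak supplied 96.4% of the group's summed score, with a ratio of 53.4 to the next. At chromosome 9, 45484527 to 45490978, a 1690 bp peak with a listed score of 3100 was followed by peaks of 53.2 and 148, with gaps of 1016 and 2907 bp. In these 2 groups the leading peak had the lowest coordinates and all weaker peaks lay on one side of it. This layout was not general. By listed scores, the group of chromosome 4, 41606733 to 41611427, ranked between them, with a ratio of 24.4 against 53.4 and 20.9. The 20.9 rests on the score of exactly 3100, a value that recurs as the highest score of pairs and is taken as listed. In the group of chromosome 4 the leading peak, of score 1670, had a weaker peak on each side.

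Among groups of at least 4 peaks, the largest ratio was 15.6, at chromosome 11, 101978332 to 101993542. Its 6 peaks had scores of 115, 91.8, 56.8, 1854, 119 and 100.45 in order of position. The leading peak was 1442 bp wide, with neighbours 5733 bp before and 121 bp after it. At chromosome 3, 78943041 to 78950563, scores of 299, 98.6, 2248 and 106 followed each other, and the last peak began 32 bp after the leading one ended.

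The remaining groups of at least 4 peaks with the largest ratios were weaker. At chromosome 11, 35959586 to 35975997, the scores were 78.5, 819, 146 and 153, a ratio of 5.36. At chromosome 7, 117914052 to 117929566, they were 743, 70.9, 73.3 and 164, a ratio of 4.52. At chromosome 15, 78656131 to 78669776, they were 52.8, 64.6, 582 and 177, a ratio of 3.28. Main peaks were also listed at lower scores, and the weakest of the 41 had a score of 141 (chromosome 10, 8681800 to 8688758).

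Strong groups were not more tightly packed. Gaps in the 23 groups with a highest score of at least 500 had a median of 3487 bp, and gaps in the other 92 groups a median of 2714.5 bp. The lowest member of the strong groups had a median score of 68.9, against 60.7 in the others. Close to the strongest peaks the list thus also contained peaks near its own lower limit.

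In 5 groups at least 2 peaks scored 500 or more. The strongest of these, at chromosome 5, 100661599 to 100669163, had a 1525 bp peak of score 1334 and a 1054 bp peak of score 2408 at its ends, with a peak of score 99.3 between them. At chromosome 10, 119159337 to 119173235, the outer peaks of 5 had scores of 785 and 645, and the 3 inner peaks had 89.6, 60.4 and 63.15. In these 2 groups the weakest members lay between the leading peaks. In the other 3 the weakest member lay at an end: at chromosome 10, 76460660 to 76480580, the scores were 68.9, 1237 and 896, and the remaining 2 are the neighbouring groups of chromosome 12 described further on.

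The 5 most even groups of at least 4 peaks all had a highest score under 188, the median highest score of all groups. The floor of the list partly sets this link, since a highest score under 100 always gives an even pattern. Among these groups that covers only those of chromosomes 10 and 7. The most even of these groups, at chromosome 3, 122499200 to 122508908, had scores of 135, 129, 134 and 125, a ratio of 1.08 between highest and lowest. All of these scores were above the median of grouped peaks, 94.5. At chromosome 10, 45022730 to 45031887, scores were 77.5, 69.9, 77.3 and 60.7. At chromosome 11, 116668609 to 116682852, they fell along the coordinates from 107 to 97.5, 82.7 and 74.6. At chromosome 19, 57195698 to 57209797, they were 91.3, 115, 143 and 128.

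Another of these even groups differed in shape. At chromosome 7, 67034081 to 67049106, scores of 55.1, 64.4, 50.5 and 52.6 belonged to peaks of 1542, 2136, 742 and 791 bp, and the first 3 were separated by 52 and 80 bp. It included the only grouped peak wider than 2000 bp, and no other listed peak lay within 500 kb of its centre. It thus resembled a broad, weak and isolated stretch more than a row of narrow peaks.

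All members reached a score of at least 100 in 13 groups (11.3%, 6.16% to 18.6%), and in 92 pairs (22.9%, 18.9% to 27.3%). These shares are not on equal footing, because at least 3 members must pass in a group and only 2 in a pair. Counted peak by peak, 46.0% of grouped and 47.6% of paired peaks reached that score. Counted by members at this level, 21 groups had 0, 40 had 1, 32 had 2, 16 had 3 and 6 had 4. A typical group therefore combined 1 or 2 peaks above 100 with others close to the limit of the list.

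Of the 7 groups with at least 5 peaks, 3 had a main peak, 3 were graded and 1 had 2 leading peaks. The group of 6 at chromosome 4, 150118763 to 150141053, had scores of 70.1, 91.2, 384, 61.9, 136 and 91.6 over 22291 bp. At chromosome 15, 84188359 to 84211438, scores were 86.3, 227, 90.4, 77.1 and 81.8, with gaps from 1960 to 7345 bp, so this group remained 5 regions when close peaks were merged. At chromosome 6, 91175551 to 91187814, scores of 337, 54.2, 230, 65.1 and 274 alternated between high and low, and peaks 3 and 4 were 4 bp apart.

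In the more compact large groups, short gaps were common. At chromosome 5, 30882271 to 30890330, scores were 63.4, 313, 109, 203 and 115, and the first 3 gaps were 357, 401 and 298 bp. At chromosome 3, 96042007 to 96051050, the scores were 167, 125, 54.7, 167 and 52.6, in 2 compact parts separated by 5509 bp.

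**Figure D3:**
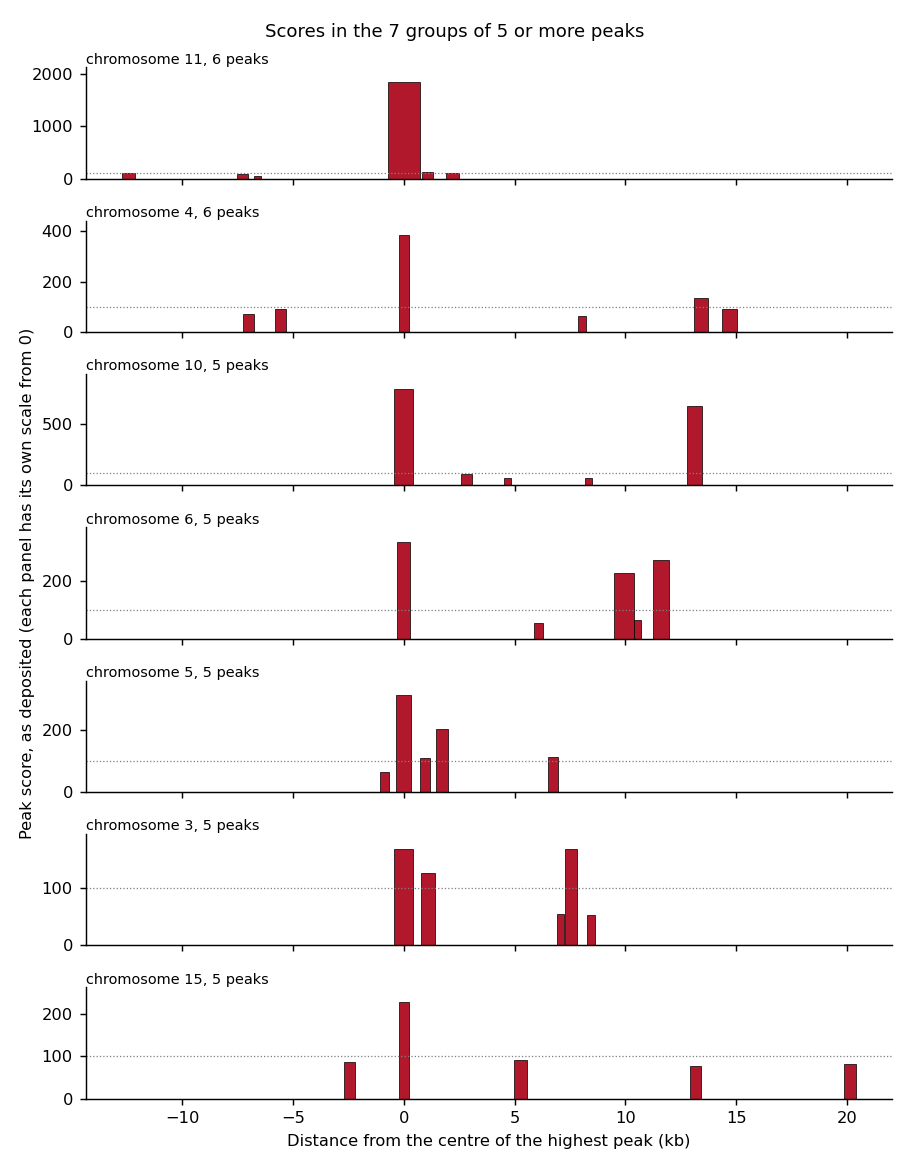
Scores as deposited (vertical axis, from 0, with a separate scale in each panel) of the peaks in the 7 groups of at least 5 peaks, against distance from the centre of the highest peak (horizontal axis, kb). Bars are as wide as the peaks and the dotted line marks a score of 100, and the highest peak stands far above the rest in the first panel, at 1854 against 119.

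The highest peak had no fixed place in a group. It lay at an end in 72 of 115 groups (62.6%, 53.1% to 71.5%), while ends made up 60.1% of all grouped peaks. In groups of 3 it was the first peak by coordinate in 33 groups, the middle one in 25 and the last in 28. The middle peak was the lowest of the 3 in 28 groups and intermediate in 33. In the 29 groups of at least 4 peaks the highest peak lay at an end in 11 (37.9%, 20.7% to 57.7%), with ends making up 46.4% of their peaks.

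The next-highest peak stood directly beside the highest in 70 of 115 groups (60.9%, 51.3% to 69.8%). In groups of 3, which were 86 of the 115, the middle peak is beside both others. A high share therefore arises from group size alone, and no tendency is read from it. Where the highest peak was inside a group, the nearer of its neighbours had the higher score in 23 of 43 (53.5%, 37.7% to 68.8%). Distance to the leading peak therefore showed no clear order of scores in these counts. The highest peak was also the widest in 67 groups (58.3%) and in 309 pairs (76.9%), counts that differ by construction in the number of peaks compared.

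Groups were unevenly shared among the chromosomes. Chromosome 5 had 19 groups, which held 63 of its 388 peaks (16.2%, 12.7% to 20.3%). Chromosome 10 had 14 (11.03%), chromosome 4 had 12 (12.6%), chromosome 11 had 11 (9.72%), and chromosomes 3 and 7 had 9 each (12.0% and 8.70%). By length of the listed span this was 1.32 groups per 10 Mb on chromosome 5 and 1.13 on chromosome 10. At the low end, chromosome 1 had 2 groups for 356 peaks (1.69%, 0.62% to 3.63%), and chromosomes 14 and 16 had 1 each (2.0% and 1.92%).

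Chromosome 1 thus combined many peaks with few groups. Its 356 peaks were spread over a listed span of 190 Mb, and the 388 of chromosome 5 over 144 Mb. Chromosome 1 had 33 pairs, close to the 36 of chromosome 5, but its 2 groups held only 6 peaks. The single groups of chromosomes 14 and 16 were led by peaks with scores of 344 and 457. The chromosomes with the fewest peaks, 14, 16, 17, 18 and 19 with 150 to 180 each, had from 1.92% to 6.62% of them in groups. Few peaks did not always mean sparse peaks, since the 173 of chromosome 19 lay in 57.2 Mb, with 4.05% in groups. Chromosome 3 had 266 peaks and 12.0% of them in groups.

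**Figure D4:**
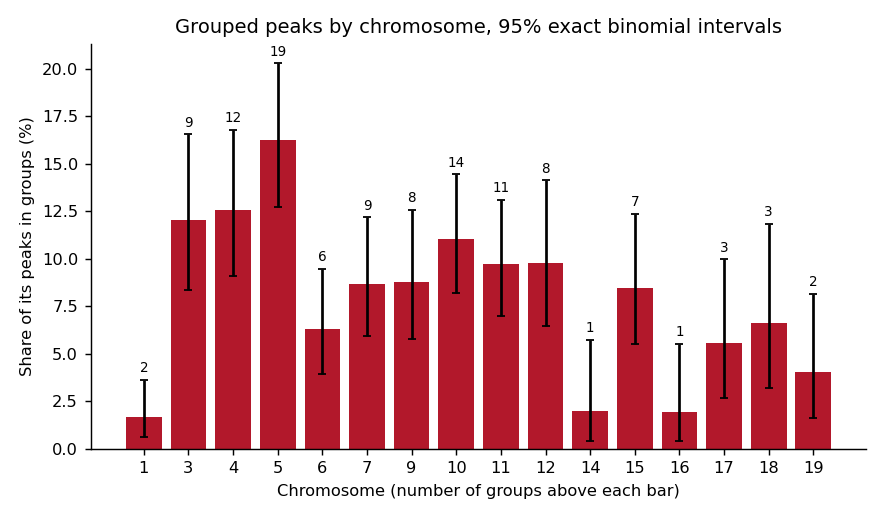
Share of the listed peaks of each of 16 autosomes that belong to groups of at least 3 (vertical axis, %), by chromosome (horizontal axis), with 95% exact binomial intervals and the number of groups above each bar. Chromosome 5 is highest at 16.2% and chromosome 1 lowest at 1.69%.

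Along the chromosomes, groups were placed far from the centromere, which in these mouse autosomes lies at the end where coordinates begin. Of 115 groups, 84 (73.0%, 64.0% to 80.9%) lay beyond the midpoint of the chromosome span that the list covers, against 64.9% of pairs (60.0% to 69.6%) and 60.4% of single peaks (58.7% to 62.04%). The last 20% of the spans held 49 groups (42.6%), 38.3% of pairs and 30.9% of single peaks. The first 20% held 8 groups (6.96%, 3.05% to 13.2%), 15.2% of pairs and 15.8% of single peaks. Groups and pairs did not keep this difference in 2 other settings. With a gap limit of 5000 bp, 68.3% of groups, 68.3% of pairs and 60.9% of single peaks lay beyond the midpoint. Among peaks scoring 100 or more, 63.6% of 22 groups, 65.5% of pairs and 62.7% of single peaks did. In that last setting groups were close to single peaks as well. The density of the whole list also rises along the spans, and whether groups are placed further out than this density alone would give was not tested.

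**Figure D5:**
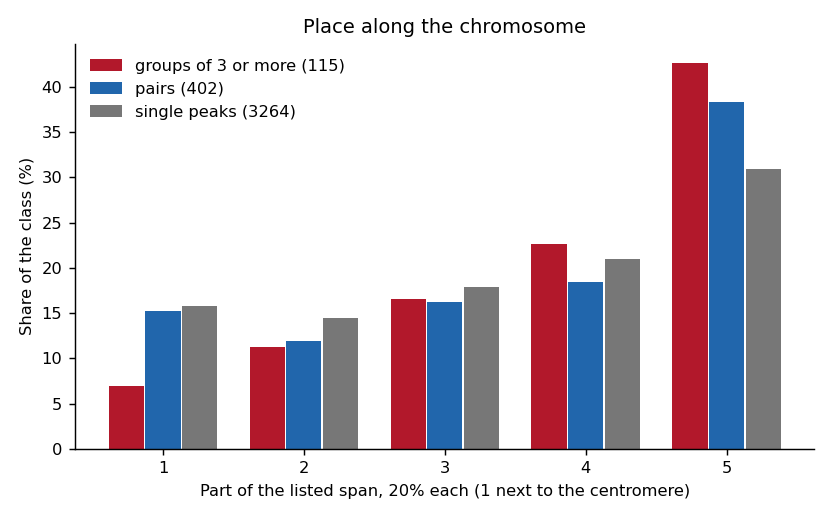
Share of each class (vertical axis, %) in each 20% of the span its chromosome covers in the list (horizontal axis, 1 next to the centromere), for 115 groups, 402 pairs and 3264 single peaks. Groups are at 6.96% in the first of these parts and 42.6% in the last.

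The surroundings of groups were richer in peaks than those of single peaks. Within 500 kb of the centre, leaving out a group's own members, a median of 7 other peaks was listed, against 5 for pairs and 4 for single peaks. Another peak lay within 50 kb outside the group in 79 of 115 (68.7%, 59.4% to 77.0%), for pairs in 51.5% and for single peaks in 35.9%. No other peak was listed within 500 kb for 3 groups (2.61%), against 6.22% of pairs and 10.4% of single peaks. Crowded surroundings make a further neighbour more likely, so this relation is partly contained in the rule.

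Some groups were themselves neighbours. Another group lay within 1 Mb of 48 of the 115 groups (41.7%) and within 100 kb of 14 (12.2%). Of fixed 1 Mb windows, 81 held 1 group, 11 held 2 and 4 held 3. The windows with 3 groups, named after their counts were seen, were chromosome 3 from 96000001, chromosome 4 from 150000001, chromosome 5 from 118000001 and chromosome 15 from 78000001. Their groups held 11 of 18, 12 of 21, 9 of 14 and 10 of 21 listed peaks.

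The closest of all groups were also alike in layout. They were singled out after their values were seen and lie at chromosome 12, 55811167 to 55820465 and 55830482 to 55839780, with 10016 bp between them, just beyond the limit that would have joined them. Each had 3 peaks and extended over 9299 bp. In order of position the scores were 888, 664 and 295 in the first and 308, 524 and 806 in the second, so the order was reversed. Centres of consecutive peaks were 3850 and 4417.5 bp apart in the first group and 4480 and 3673.5 bp in the second, again in reversed order. The lowest of these 6 scores, 295, was above the upper quartile of all grouped peaks, 173. Whether the stretches share sequence was not tested, so they may not be separate sites.

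Groups with unlike score patterns could also stand side by side. At chromosome 4, 41606733 to 41611427, a peak of score 1670 lay between peaks of 52.8 and 68.5, and 12841 bp further on began a group with scores of 127, 109 and 146. A group with a main peak and an even group were thus listed almost next to each other.

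At the limit of the rule, groups and non-groups differed by small distances. In 14 groups the largest gap was between 9000 and 10000 bp. The widest gaps inside the limit were 9995 bp at chromosome 17, 45624747 to 45640434 (scores 58.5, 337 and 111), 9683 bp in the broad group of chromosome 7 described above, and 9669 bp at chromosome 11, 105812913 to 105826787 (scores 53.7, 82.2 and 90.8). Just outside, a pair and a single peak were 10097 bp apart at chromosome 1, 72272752 to 72291195 (scores 121, 341 and 293), and the same pair lay 10303 bp before a further single peak of score 66.6. Another case, with a gap of 10196 bp, lay at chromosome 14, 8839440 to 8851515 (scores 77.3, 64.6 and 86.0). In all, 10 such joins over gaps of up to 11000 bp would have made a group.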

How the data were processed

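Per the submitters' processing notes, the tools were MACS 1.4, SAMtools, Bowtie2 and CASAVA 1.8, and the build was mm9. The sources used here give no parameters and do not say whether the input served as control. The list was called on 1 ChIP library. The authors deposited a position and a score for each peak, and no reads or coverage were analysed here.

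Peaks were sorted by position and joined while the gap between edges was at most 10000 bp. Groups of at least 3 peaks on the 16 autosomes were kept and compared with pairs and single peaks of the same chromosomes. Positions are 1-based mm9. Annotation and sequence of mm9 were not used here. Members, measures and alternatives were chosen with earlier results of these data known. Groups were named by rule: all with at least 5 peaks, the 5 highest scores, the 3 longest and 3 shortest, and those nearest the gap limit. Of groups with at least 4 peaks, those named were the 5 with the largest ratio of highest to second score. The 5 with the smallest ratio of highest to lowest score were named too. Any other group given by position fell under none of these rules and was picked with its values known. Alternatives were other gap limits and distances, merging within 1000 bp, a score minimum of 100, a width maximum of 2000 bp, other sets of chromosomes and other ratios for a main peak. Grouping was tested on 20 simulated lists and recovered all planted groups in 20. Software was SciPy 1.17.1, pandas 2.3.3, Matplotlib 3.10.9, NumPy 2.4.6 and Python 3.11.15.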

Additional observations from a re-analysis of the deposited data

How the results depend on the processing

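Of 100 alternative values, 70 stayed within 1.5 times the reported count or within the 95% exact binomial interval of the reported share or median, and 30 moved further. With a gap limit of 5000 bp there were 60 groups with 191 peaks (4.29% of peaks), a median gap of 1582 bp and a median extent of 5869 bp, and 68.3% of groups and of pairs lay beyond the midpoint. With 20000 bp there were 193 groups with 711 peaks (15.97%), a median gap of 5473.5 bp and an extent of 19174 bp, and a main peak in 40.4% of groups and 40.3% of pairs. The shifts in number, gap and extent follow from the limit itself. With peaks under 1000 bp apart merged, 67 groups with 214 regions (5.03%) remained, with a median gap of 4201 bp and an extent of 12089 bp. A main peak was then found in 46.3% of groups against 41.7% of pairs, which turns the order of groups and pairs reported above, and consecutive regions differed by a ratio of 2.16. With scores of at least 100 only, 22 groups with 71 peaks (4.22%) were left, and their median score of 178 and width of 609 bp follow from the threshold. The ratio of highest to next score was then 1.34 and of consecutive peaks 1.54, and the highest peak lay at an end in 72.7%. In this setting 63.6% of groups lay beyond the midpoint, against 65.5% of pairs and 62.7% of single peaks. Groups thus no longer lay further out than pairs and were close to single peaks. With all autosomes and X, 9.63% of peaks were grouped and their median width was 490.5 bp. A main peak defined by a ratio of 1.5 was found in 54.8% of groups and by a ratio of 3 in 19.1%, against 61.2% and 23.4% of pairs. Measuring between centres, leaving out wide peaks and leaving out chromosome 5 moved no value beyond those bounds. No paired analysis was possible because each library stands alone and only the ChIP library gave a list. Without replicates, no library could be left out.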
